A study of Mus musculus with 6 samples.

Results

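The proteasome is the cell's main machine for breaking down proteins tagged with ubiquitin, and its subunit genes were read here in mouse livers given Ad-MafG or Ad-Control. Members were all genes on the array whose symbol begins with Psm, a letter from a to g and a digit, leaving out Psmb8, Psmb9 and Psmb10, which encode the subunits of the immunoproteasome. This gave 42 genes with 63 probes among 16593 named genes. Of these, 40 genes with 57 probes were detected (on at least 3 arrays of the 6, at a detection p under 0.05) and tested. Psma1 and Psma6 were not, with 1 dim probe each. The symbol rule also took in Psmc3ip and Psme3ip1, which are named for proteins that bind a proteasome part and are not subunits, so 38 of the tested genes are proteasome genes proper. These comprise 12 core particle genes, 16 genes of the regulatory particle, 4 activator genes and 6 genes of assembly chaperones.

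The data are Illumina BeadChip signals of total RNA from whole liver; the 6 mice were wild-type C57BL/6, 3 given Ad-MafG and 3 given Ad-Control (Ad-CMV in the labels), each array standing for 1 mouse. Livers were taken on day 5 after a fast of 4 to 6 h, and the labels give no age. MafG is a small Maf transcription factor. All 10 hepatocyte markers listed were detected. The array's Mafg probe was lower in the livers labelled Ad-MafG (log2 difference -0.54, limma adjusted p = 0.0341). Where it lies relative to the Ad-MafG insert is not stated in the labels, so it does not check the labels, on which every direction rests. Before normalization Ad-Control 2 had a median signal of 180, above the 160.6 and 165.7 of the other control arrays and near the 181.6 to 185.8 of the Ad-MafG arrays.

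The core particle is a barrel of alpha and beta rings. The alpha rings form the gates, and inside the beta rings sit the catalytic sites, carried by Psmb5, Psmb6 and Psmb7. The regulatory particle caps the barrel. Its base holds a ring of ATPases that unfold substrates, and its lid holds the deubiquitinase Psmd14. Proteasome genes are activated when proteasome activity falls short, through the CNC factor NFE2L1 (also called NRF1), which binds antioxidant response elements as a dimer with a small Maf protein.

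No proteasome gene was called changed in the livers labelled Ad-MafG. By limma with Benjamini-Hochberg adjustment over 8827 genes at a threshold of 0.05, 0 of 40 members were higher and 0 lower, where 6.29% of all genes were called higher, 3.63% lower and 9.91% either way. At an unadjusted p under 0.05 there were 6 members higher and 1 lower, 17.5% of the members against 29.8% of all genes. The adjusted p of the 40 members ran from 0.0621 upward. Changes were small: the log2 difference (Ad-MafG minus Ad-Control in normalized log2 intensity, the log2 of the fold change) lay between -0.47 for Psmd9 and 0.44 for Psmb5. Its SD between the 38 proteasome genes was 0.184, against 0.43 between all genes. Their median was 0.12, a 1.09-fold difference, against -0.02 over all genes.

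The 95% intervals give a range around each estimate, from the brightest probe of each gene with quantile normalization. Other probes and scalings give other intervals. Among the 28 genes of the core and regulatory particles, the highest upper bound was 1.66-fold, for Psmb5, and the lowest lower bound was 0.684-fold, for Psmd6. With the chaperones and activators included, the bounds widened to 1.70-fold (Psmd10) and 0.481-fold (Psmd9). These intervals are not adjusted for the number of genes. Of the 28 particle genes, 6 had an interval above 0 and 1 had an interval below 0. Such an interval leaves out 0 when limma's unadjusted p is under 0.05. Over all genes this held for 15.5% on the higher side and 14.3% on the lower side. An interval that holds 0 does not show that a gene was unchanged.

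**Figure D1:**
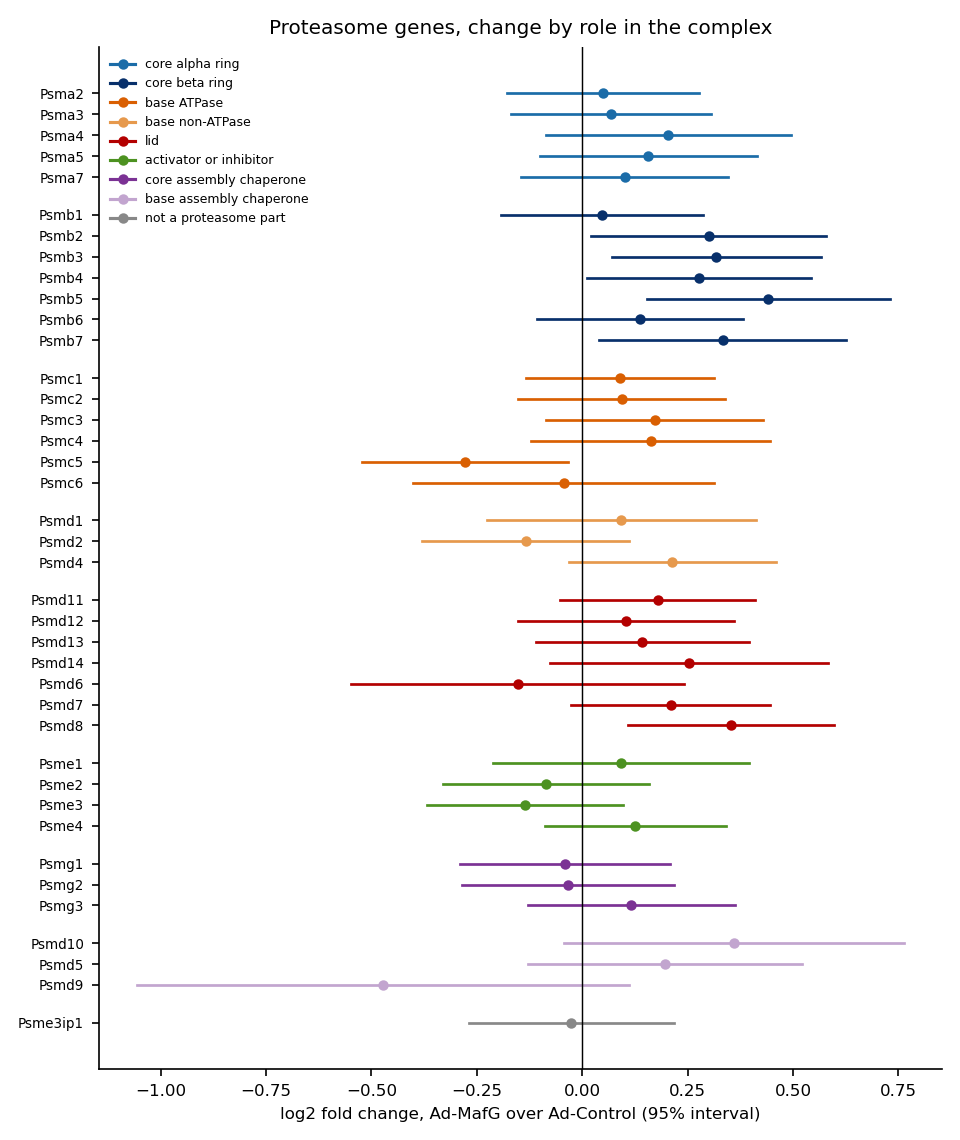
Log2 fold change of the tested members (x axis, Ad-MafG over Ad-Control, with 95% intervals from limma), grouped by role in the complex. Psmc3ip is not drawn because of its wide interval. The 7 beta ring genes all lie right of 0 (6 of 7 with the authors' scaled values). Among the genes drawn left of 0, Psmc5 and Psmd9 lie furthest from it. No gene passed the adjusted threshold.

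In a whole liver, more RNA per cell and more cells of a type cannot be told apart. Markers of other cells moved between the same groups, where 6.29% of all genes were called higher and 3.63% lower. Of 9 tested macrophage markers 5 were called higher and 0 lower, with Marco at -1.06 (adjusted p = 0.101, groups apart) and Timd4 at -1.48 (adjusted p = 0.249, groups overlapping) below 0. Their summed level was 12006 to 15514 in Ad-Control and 23532 to 26348 in Ad-MafG. Of 5 markers of dividing cells 5 were called higher, summing to 669 to 1169 and 2151 to 2535. Of 8 stellate cell markers 4 were called higher and 1, Des at -0.13, lay below 0. The stellate sums were 11576 to 12392 and 13006 to 15779. The 4 endothelial markers had 0 calls and sums of 8917 to 10129 and 10955 to 12678. Hepatocyte markers summed to 181863 to 197397 in Ad-Control and 174582 to 188203 in Ad-MafG, with 0 of 10 called. Of these 10, 9 lay below 0, with a median of -0.20 over all 10. In 3 all Ad-MafG values lay below all Ad-Control values, against 17.9% of all genes. Cyp3a11 lay above 0 at 0.39 with its groups apart. The part of these cells in the members' values was not tested.

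Antioxidant response elements were looked for in the members' promoters because small Maf proteins take part in binding them. The 9-letter core TGACNNNGC was searched on both strands in RefSeq promoters of GRCm38.p6, each from 250 bases before to 50 bases after a gene's start. Of the 42 members, 36 had a promoter in that table. The motif was found in 6 of them, Psmb5, Psmb6, Psmc6, Psmd9, Psmd12 and Psme4, or 16.7%. It was found for 16.5% of the tested genes with a promoter and 14% of all 27025 genes with one. A match of these letters is not a measured binding site, and the members' share lies at the background.

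Promoters are shown for Psmb5 and Psmb6, catalytic subunits that hold a match, and for Psmd9, which holds one and had the lowest fold change. They were chosen after their values were seen. Capitals mark the match to the motif, and each sequence runs 5′ to 3′ on the gene's strand. That of Psmb5 (chr14:54617946-54618245, minus strand) has its match from base -47 to -39 before the start. That of Psmb6 (chr11:70525107-70525406, plus strand) has it from -9 to -1. That of Psmd9 (chr5:123227940-123228239, plus strand) has it from -31 to -23.
Psmb5: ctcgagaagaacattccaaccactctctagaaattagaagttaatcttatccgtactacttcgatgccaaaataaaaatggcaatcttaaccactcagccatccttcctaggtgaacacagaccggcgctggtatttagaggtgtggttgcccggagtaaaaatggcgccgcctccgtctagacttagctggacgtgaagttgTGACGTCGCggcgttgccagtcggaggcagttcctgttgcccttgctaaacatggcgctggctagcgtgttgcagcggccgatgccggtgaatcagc
Psmb6: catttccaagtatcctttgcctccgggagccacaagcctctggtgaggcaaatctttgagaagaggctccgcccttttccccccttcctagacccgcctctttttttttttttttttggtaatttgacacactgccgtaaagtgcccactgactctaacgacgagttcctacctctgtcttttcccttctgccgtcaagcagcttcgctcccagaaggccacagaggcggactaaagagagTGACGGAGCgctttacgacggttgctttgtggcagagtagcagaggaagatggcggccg
Psmd9: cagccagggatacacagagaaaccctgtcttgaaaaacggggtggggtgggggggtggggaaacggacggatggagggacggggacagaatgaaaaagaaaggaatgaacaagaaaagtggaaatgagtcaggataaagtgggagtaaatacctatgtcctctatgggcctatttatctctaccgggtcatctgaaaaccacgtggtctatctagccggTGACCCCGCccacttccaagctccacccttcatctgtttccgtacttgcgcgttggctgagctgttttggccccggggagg

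The beta ring had the highest median among the classes with quantile normalization. With median scaling its median of 0.20 lay below that of the base assembly chaperones, which was the 0.31 of Psmd5, and with the authors' scaled values the 2 medians were 0.18 and 0.27. All 7 of its genes lay above 0 (6 of 7 with the authors' scaled values, where Psmb1 had -0.02), with a median log2 difference of 0.30 (1.23-fold), and in 5 of 7 the 3 Ad-MafG values all lay above the 3 Ad-Control values. Over all genes 18.3% had their groups apart in that direction and 47.2% lay above 0. The 5 genes were Psmb2, Psmb3, Psmb4, Psmb5 and Psmb7, and they are also the 5 core genes with an unadjusted p under 0.05. None of the 7 passed limma's adjusted threshold. 

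Psmb5 encodes the subunit with chymotrypsin-like activity, the main target of proteasome inhibitor drugs, and had the highest fold change of all members. Its log2 intensity was 10.61, 10.83 and 10.49 in Ad-Control 1 to 3 and 10.97, 11.16 and 11.12 in Ad-MafG 1 to 3. The groups did not overlap, and Ad-Control 2 was the nearest control. The log2 difference was 0.44 ± 0.12 SE (1.36-fold, 95% interval 1.11 to 1.66, limma adjusted p = 0.0621). The non-normalized signal behind it was 1401, 1959 and 1404 in Ad-Control and 2358, 2569 and 2593 in Ad-MafG. Psmb5 passed in 8 of 20 alternative settings, with an adjusted p from 0.00775 to 0.169 and a log2 difference from 0.36 to 0.68. One of these was the fit without Ad-Control 2, in which the adjusted p was 0.0359 and the log2 difference 0.54.

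Psmb7, which carries the trypsin-like site, was measured by 3 probes. The brightest read 12.89, 13.22 and 12.93 in Ad-Control and 13.34, 13.25 and 13.45 in Ad-MafG. Here Ad-Control 2 came just below the lowest Ad-MafG array, and the log2 difference was 0.33 ± 0.12 SE (adjusted p = 0.126). The other 2 probes gave 0.40 and 0.15, so the probes shared a sign and differed in size. With all detected probes tested singly, the probe at 0.40 had its groups apart (± 0.10 SE, limma adjusted p = 0.0511). The probe at 0.15 had overlapping groups (± 0.17 SE, adjusted p = 0.60). Psmb6, with the caspase-like site, did not separate the groups. It read 12.83, 12.98 and 12.76 in Ad-Control and 13.05, 12.93 and 13.00 in Ad-MafG, a log2 difference of 0.14 ± 0.10 SE (adjusted p = 0.413).

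The remaining beta ring genes encode subunits without a catalytic site. Psmb3 read 12.69, 12.88 and 12.72 in Ad-Control and 13.02, 13.03 and 13.18 in Ad-MafG. Its log2 difference was 0.32 ± 0.11 SE (adjusted p = 0.0964), and it passed in 3 of 20 alternatives, with an adjusted p from 0.0214 to 0.25. Psmb2 had a log2 difference of 0.30 (adjusted p = 0.144), and a further probe of that gene gave 0.31. In Psmb2, the lowest Ad-MafG value of 13.08 lay next to the highest Ad-Control value of 13.07. Psmb4 read 13.76, 13.96 and 13.89 in Ad-Control and 14.11, 14.04 and 14.30 in Ad-MafG, a log2 difference of 0.28 (adjusted p = 0.153). Psmb1 stood apart from these with 0.05, and its groups overlapped.

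**Figure D2:**
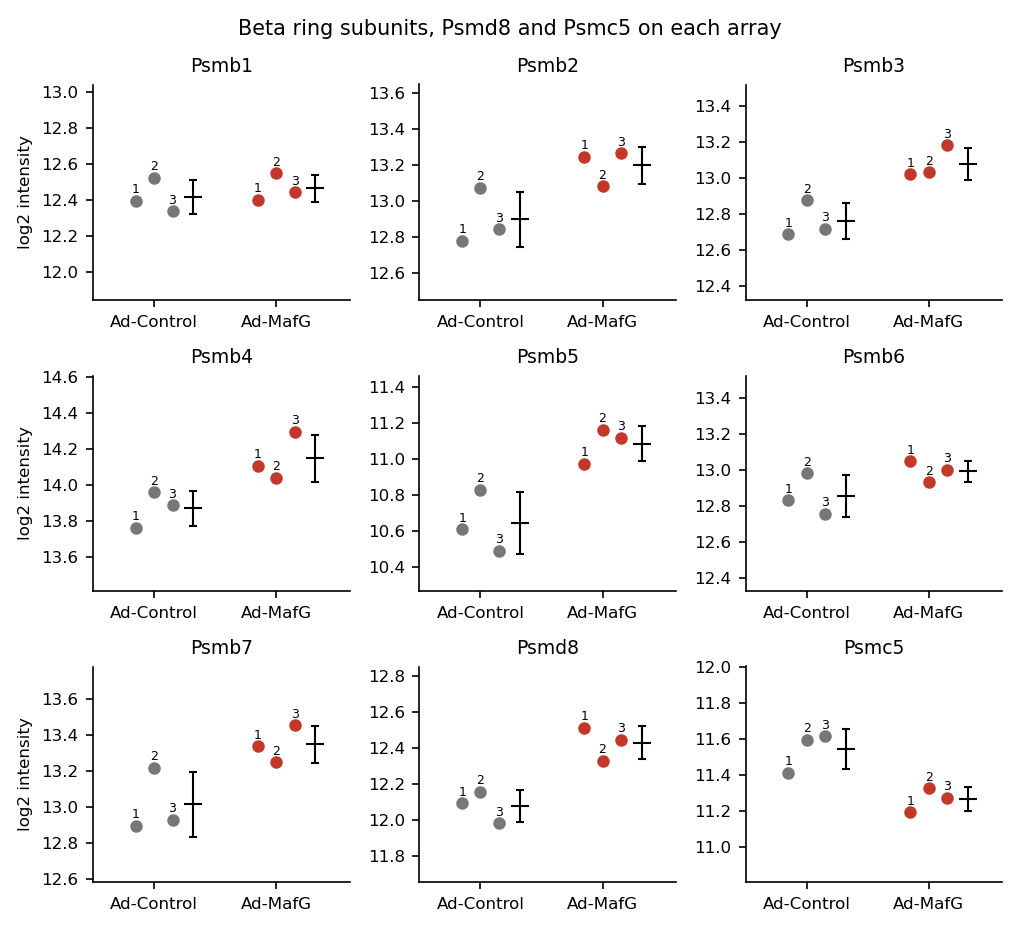
Normalized log2 intensity (y axis) of the 7 beta ring genes and of Psmd8 and Psmc5 on each array, with replicate numbers above the points and the group mean and SD (n = 3) beside them in black. Each panel spans the same range of log2 units. Psmb5, Psmb3 and Psmd8 separate the groups by the widest gaps among genes higher in Ad-MafG, Psmc5 runs the other way, and Ad-Control 2 is the highest control in all panels but that of Psmc5.

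The alpha ring genes lay closer to 0. The 5 tested, Psma2, Psma3, Psma4, Psma5 and Psma7, had log2 differences from 0.05 to 0.20 and a median of 0.10. Their groups overlapped in all 5 cases and 0 had an unadjusted p under 0.05. Psma4 was the highest, with 12.91, 13.26 and 13.03 in Ad-Control and 13.22, 13.21 and 13.38 in Ad-MafG. Under median scaling instead of quantile normalization, Psma2 and Psma3 turned to -0.08 and -0.06, and with the authors' scaled values they and Psma5 lay below 0. Psma7 had a further probe at -0.02 against 0.10 for its brightest.

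The regulatory particle had a lower median than the core, 0.12 over 16 genes against 0.18 over 12, an order that turned with median scaling and with the authors' scaled values. Of its genes 12 lay above 0 and 4 below. In 4 of them all Ad-MafG values lay above all Ad-Control values and in 1 all lay below, against 18.3% and 17.9% of all genes. Its 6 ATPase genes had a median of 0.09, its 3 non-ATPase base genes 0.09 and its 7 lid genes 0.18. Of its 4 genes below 0, Psmc6, Psmd2 and Psmd6 had dim probes. Their mean non-normalized signals in Ad-Control were 224, 343 and 338, where the array medians were 160.6 to 185.8. Psmd1, above 0, was dim as well at 435, and the dimmest core gene, Psmb5, had 1588. The part of probe brightness in the comparison of the particles was not tested.

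Psmd8, a lid subunit, was the highest of the regulatory particle. It read 12.10, 12.16 and 11.98 in Ad-Control and 12.52, 12.33 and 12.45 in Ad-MafG. The groups did not overlap, with a log2 difference of 0.35 ± 0.10 SE (1.28-fold, limma adjusted p = 0.0728). Psmd8 passed in 3 of 20 alternatives, with an adjusted p from 0.0112 to 0.199. Of the other lid genes, Psmd14, the deubiquitinase that strips ubiquitin from substrates, had 0.25 (adjusted p = 0.271). Psmd7, its inactive partner, had 0.21 with its groups apart (adjusted p = 0.209), and a further probe gave 0.13. Psmd11, with its groups apart as well, had 0.18 (adjusted p = 0.267). Psmd12 and Psmd13 had 0.10 and 0.14, and Psmd6 had -0.15 with a further probe at -0.08.

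Psmc5, one of the ATPases of the base, was the only particle gene whose Ad-MafG values all lay below the controls. It read 11.42, 11.60 and 11.62 in Ad-Control and 11.20, 11.33 and 11.27 in Ad-MafG. The log2 difference was -0.28 ± 0.10 SE (0.825-fold, adjusted p = 0.127), and it lay below 0 in 20 of 20 alternatives, from -0.34 to -0.05, with 0 calls. Its further probe gave -0.08. The 5 other ATPase genes spread around small values: Psmc1 had 0.09, Psmc2 0.09, Psmc3 0.17, Psmc4 0.16 and Psmc6 -0.04, of which Psmc2 and Psmc6 turned sign with median scaling. In the base, Psmd4, a receptor for ubiquitin chains, had 0.21 (adjusted p = 0.22) with its groups apart, and the scaffold genes Psmd1 and Psmd2 had 0.09 and -0.13. Psmd2 had a dimmer further probe at 0.20 and was at 0.01 with median scaling, so its sign is uncertain.

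The difference between core and regulatory particle rested on the scaling of the arrays. Averaged over its 12 genes, the core particle was at 12.80, 13.01 and 12.80 in Ad-Control and 13.04, 13.04 and 13.13 in Ad-MafG. The mean of the 16 regulatory particle genes was 10.76, 10.89 and 10.81 in Ad-Control and 10.91, 10.92 and 10.91 in Ad-MafG. Ad-Control 2 sat near the Ad-MafG arrays in both. The core mean minus the regulatory mean was 2.05 ± 0.07 (SD, n = 3) for the Ad-Control livers and 2.16 ± 0.05 (SD, n = 3) for Ad-MafG, a difference of 0.11. With median scaling it was 2.10 ± 0.03 and 2.10 ± 0.02, a difference of 0.005, and with the authors' scaled values 2.11 ± 0.04 and 2.13 ± 0.02, a difference of 0.02. No test was run on these means, since the genes were chosen with earlier results of these data known.

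The same comparison by medians changed sign with the scaling. The core median minus the regulatory median was 0.06, but it was -0.03 with median scaling, -0.02 with the authors' scaled values and -0.02 with no background correction and no normalization. With cyclic loess it kept its sign at 0.02, from 0.16 for the core and 0.15 for the regulatory particle. Of the 12 core genes all lay above 0 with quantile normalization, 10 with median scaling and 8 with the authors' scaled values. Without Ad-Control 2 the core median was 0.27 and the regulatory median 0.19, in place of 0.18 and 0.12, and without Ad-Control 1 they were 0.13 and 0.08. The core minus regulatory median was 0.03 without Ad-MafG 3 and 0.03 without Ad-Control 3.

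**Figure D3:**
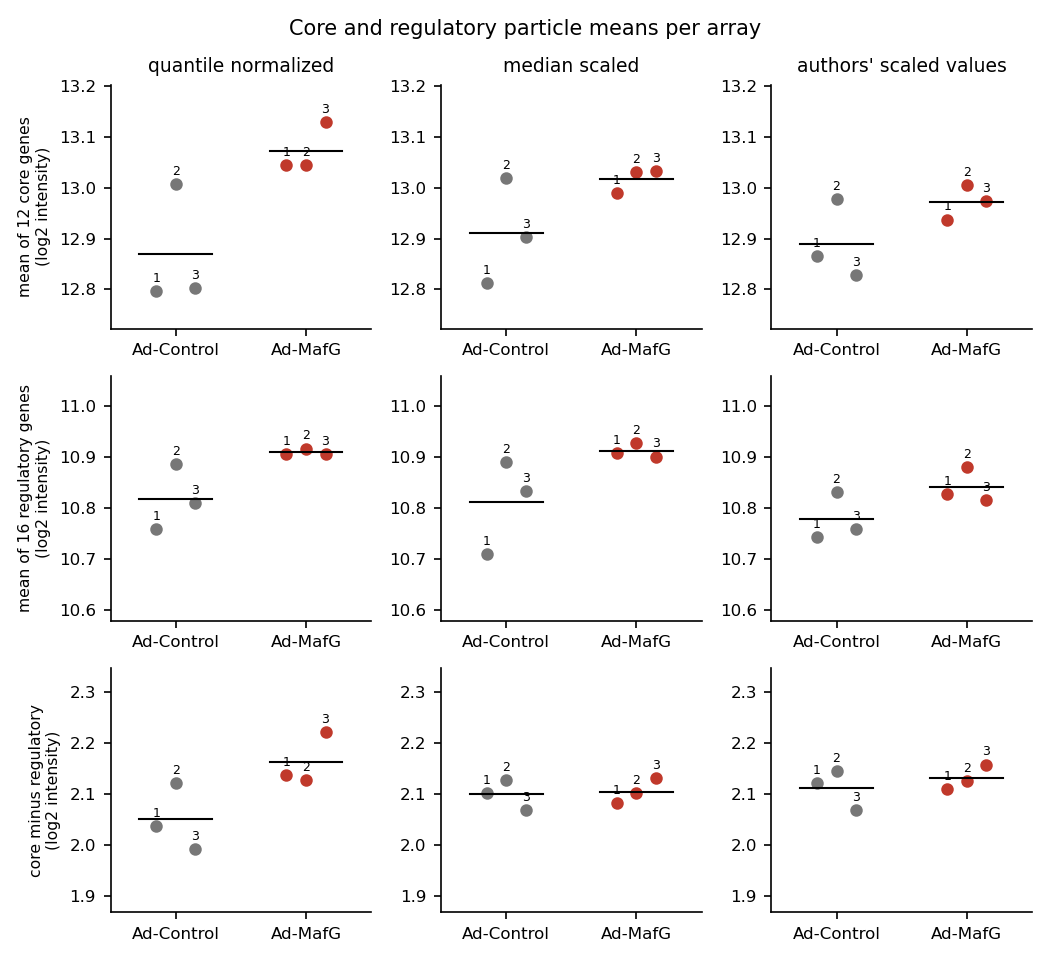
Mean log2 intensity per array of the 12 core genes (top), of the 16 regulatory particle genes (middle) and their difference (bottom), for quantile normalized, median scaled and authors' scaled values (columns); horizontal bars are group means of 3 arrays and numbers are replicates. The difference between the groups in the bottom row is 0.11 on the left and shrinks to 0.005 and 0.02 in the other columns.

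One control array moved with the members. Ad-Control 2 was the highest of the 3 control arrays for 29 of the 38 proteasome genes (76.3%) and for 12 of 12 core genes, where it was the highest for 35.3% of all genes. Before normalization it was also the brightest control array. With no background correction and no normalization, 11 members passed as higher and 0 as lower, where 24.9% of all genes were called higher. In that setting the median log2 difference of all genes was 0.21, beside a core median of 0.30 and a regulatory median of 0.32. The part of array brightness in the members' values was not tested.

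Activators dock on the core in place of the regulatory particle. Psme1 and Psme2, whose products form the interferon-inducible cap, had log2 differences of 0.09 and -0.09 with overlapping groups, and both turned sign with median scaling. In both, Ad-Control 2 held the highest of all 6 values, 13.48 for Psme1 and 9.88 for Psme2. Psme3, which forms a nuclear cap, had -0.14 and Psme4, a large single-chain activator, 0.13. Although their groups did not overlap, the adjusted p was 0.396 for both, and a dimmer probe of Psme4 gave -0.14.

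Psmb8, Psmb9 and Psmb10 replace the catalytic subunits in immune cells and after interferon gamma. They had log2 differences of -0.21, 0.28 and -0.26, with an adjusted p of 0.507, 0.491 and 0.418. Psmb9 read 11.29, 12.33 and 11.49 in Ad-Control and 12.05, 11.96 and 11.95 in Ad-MafG. In all 3 genes Ad-Control 2 was the highest of the 6 arrays. The summed level of 7 tested T and NK cell markers was also highest there, 3513 against 1437 and 2061 in the other controls and 2447 to 2459 in Ad-MafG. Its part in these values was not tested.

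Assembly chaperones hold subunits together while the complex is built and are not part of the finished particle. Those of the core, Psmg1, Psmg2 and Psmg3, had log2 differences of -0.04, -0.03 and 0.12, of which Psmg1 and Psmg2 turned positive with median scaling. Those of the base spread most widely of all classes: Psmd10, known as gankyrin, had 0.36 (adjusted p = 0.209), Psmd5 0.20 and Psmd9 -0.47. Psmd10 rested on 3 probes, at 0.36, 0.40 and 0.22.

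Psmd9 had the lowest value among the members, and its further probe was the only member probe past a threshold. The brightest probe read 8.78, 8.53 and 9.17 in Ad-Control and 8.22, 8.84 and 7.998 in Ad-MafG, with overlapping groups and an adjusted p of 0.248. With no background correction and no normalization the brightest probe was at -0.07, where the median of all genes was 0.21. The dimmer probe fell from a mean of 8.09 ± 0.05 (SD, n = 3) to 7.47 ± 0.22 (SD, n = 3). Its mean non-normalized signal was 364 in Ad-Control and 333 in Ad-MafG, where the array medians were 160.6 to 185.8. With all 12893 detected probes tested singly, its log2 difference was -0.63 ± 0.13 SE (0.648-fold, limma adjusted p = 0.0338), and its groups did not overlap. It was the 1 of 57 member probes called lower, with 0 called higher, where 3.99% of all probes were called lower and 5.91% higher. Since Psmd9 is read here through its brightest probe, it was not counted as changed.

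Of 15 members with more than 1 tested probe, 12 had probes of the same sign and 3, Psma7, Psmd2 and Psme4, had opposite signs. The range between probes of 1 gene had a median of 0.09 and reached 0.34 for Psmd2. Probes of Psmb2 differed by 0.01 and those of Psmd12 by 0.01.

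**Figure D4:**
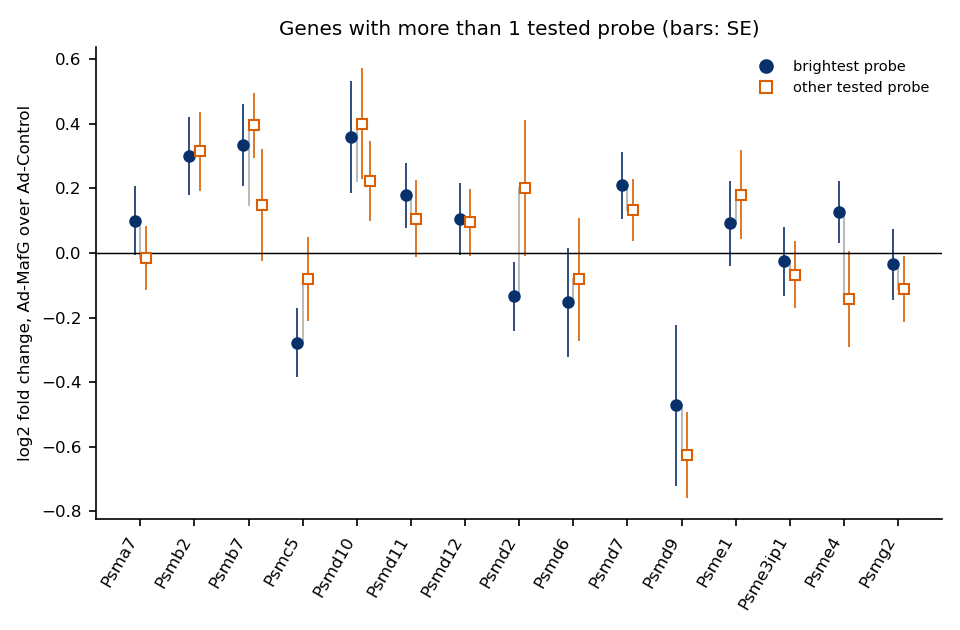
Log2 fold change (y axis, bars are SE) of every tested probe of the 15 members with more than 1, with the brightest probe as a filled circle and the others as open squares. Psmd9 and Psmc5 have their probes below 0, Psmb2, Psmb7 and Psmd10 above 0, and Psma7, Psmd2 and Psme4 on both sides.

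Psmc3ip, a recombination factor, varied between mice far more than any subunit. It read 8.79, 6.73 and 8.998 in Ad-Control and 8.22, 6.96 and 9.0002 in Ad-MafG, so 1 array in each group was low. Its log2 difference was -0.11 ± 0.70 SE, and it says little about the groups. Psme3ip1 had -0.03, and both genes turned positive with median scaling.

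Of a list of 44 other ubiquitin and proteasome genes, 26 were on the array and 21 were tested. These 21 gave 1 call, higher, where 6.29% of all genes were called higher and 9.91% either way. Zfand2a, an arsenite-inducible protein that associates with the proteasome, rose from 10.17 ± 0.13 to 10.79 ± 0.12 (SD, n = 3 each). The log2 difference was 0.62 ± 0.12 SE (1.54-fold, limma adjusted p = 0.0246). It passed in the fit without Ad-Control 2 but missed without any other single array, with an adjusted p of 0.0635 and 0.0555 when Ad-Control 1 or 3 was left out and of 0.0672, 0.0605 and 0.087 when Ad-MafG 1, 2 or 3 was. Nfe2l1, the activator of proteasome genes named above, read 11.79, 11.59 and 11.86 in Ad-Control and 11.66, 11.48 and 11.58 in Ad-MafG. Its groups overlapped, at -0.17 ± 0.11 SE (adjusted p = 0.343). Pomp, a chaperone of core particle assembly, had 0.13 (adjusted p = 0.486), and -0.02 with median scaling. The list had a median of 0.08, with 13 genes above 0 and 8 below.

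Other complexes built from many subunits give these values their scale. Cytosolic ribosomal protein genes had a median log2 difference of 0.23, with 54 of 55 above 0, 2 called higher and 1 lower. All Ad-MafG values lay above all Ad-Control values in 35 of the 55, beside 5 of 7 in the beta ring, and all lay below in 1. Over all genes 18.3% lay apart above and 17.9% apart below, and 6.29% were called higher and 3.63% lower. The highest ribosomal gene was Rpl28 at 0.47 and the lowest Rpl22 at -0.69. The CCT chaperonin had a median of 0.02 over 8 genes, from -0.32 for Cct2 to 0.30 for Cct5. For eIF3 it was 0.07 over 9 genes, from -0.05 for Eif3b to 0.22 for Eif3f, and for the COP9 signalosome -0.07 over 9 genes, from -0.15 for Cops7a to 0.28 for Cops6. Both share an architecture with the proteasome lid, and 0 genes of CCT, eIF3 or COP9 were called. The ribosomal median also moved with the scaling, to 0.10 with median scaling and 0.06 with the authors' scaled values.

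**Figure D5:**
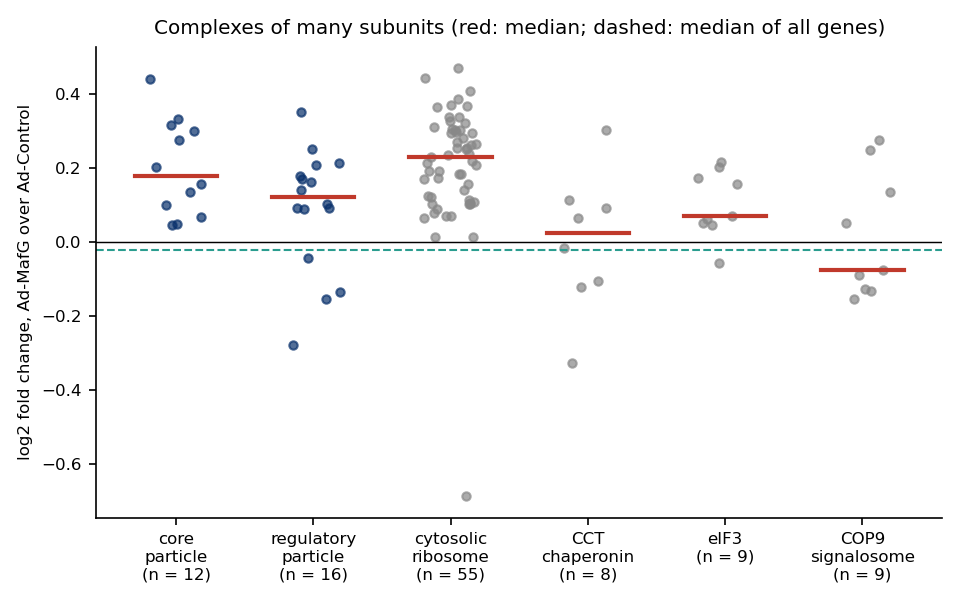
Log2 fold change (y axis) of each tested gene in 6 complexes or parts of them (x axis, with the number of genes), with medians in red and the median of all genes dashed. The core particle, regulatory particle and ribosome have medians of 0.18, 0.12 and 0.23 (0.07, 0.10 and 0.10 with median scaling, 0.04, 0.07 and 0.06 with the authors' scaled values), and genes of CCT and COP9 spread around 0.

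The authors' deposited table compares the same arrays by a difference score. For the 38 proteasome genes it ran from -27.6 for Psmc5 to 29.2 for Psmd8, with 27.4 for Psmb5. Zfand2a had 90.1. The error model of the score is not given by the sources used, so it was not set against a threshold.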

How the data were processed

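Per the labels' protocols, liver RNA was isolated with QIAzol and column kits and amplified to biotin-labelled cRNA. Per the file headers, the authors deposited the non-normalized intensity and a detection p-value of 25697 probes on each array. They also deposited scaled intensity values and a table of group means with a difference score; how they scaled the values and what error model the score has is not given by the sources used.

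From the non-normalized table, background was modelled by normexp using the detection p-values (offset 16), followed by quantile normalization and log2 (neqc in limma 3.58.1, R 4.3.3). Probes detected at p under 0.05 on at least 3 of 6 arrays were kept, 12893 of them. Between 12079 and 13042 probes were detected per array, and precision rests on 3 arrays per group. The platform annotation named 23978 probes. The probe with the highest mean over the 6 arrays stood for each of 8827 genes. Groups were compared with lmFit and eBayes, two-sided, without covariates, with Benjamini-Hochberg adjustment over all genes. The fit was tested on simulated data.

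Members, lists and the rule for naming genes were chosen with earlier results of these data known. Named were every tested member, the 3 immunosubunits, Nfe2l1, Pomp, called genes of the list of other ubiquitin and proteasome genes, and the extremes of the comparison complexes. Alternatives covered background, offset, scaling, filter, probe choice, weights, variance model, replicate block and each array left out.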

Additional observations from a re-analysis of the deposited data

How the results depend on the processing

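The count of members called higher, 0 with quantile normalization, was 0 in 12 of 20 alternatives. It was 3 with no background correction alone and with trend and robust eBayes, 1 with an offset of 50, median scaling, detection p under 0.01 on all 6 arrays and array weights, 11 with no background correction and no normalization, and 0 to 1 with 1 array left out. The single calls were all Psmb5, and the 3 were Psmb3, Psmb5 and Psmd8. The count of members called lower was 0 throughout. Of all genes, 9.01% were called higher with no background correction alone and 8.96% with trend and robust eBayes. The share was 8.01% with an offset of 50 and 9.03% with median scaling. It was 8.28% with detection p under 0.01 on all 6 arrays and 8% with array weights. With no background correction and no normalization it was 24.9%, and with 1 array left out 1.45% to 8.32%. With the unmoderated statistic 0 of all 8827 genes passed.

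The core particle median log2 fold change of 0.18 was 0.0692 with median scaling, 0.0448 with the authors' scaled values and 0.30 with no background correction and no normalization. The beta ring median was 0.20, 0.18 and 0.43 in the same settings, and 0.30 with cyclic loess. The regulatory particle median log2 fold change of 0.12 was 0.0678 with the authors' scaled values and 0.32 with no background correction and no normalization. With 1 array left out the ranges were 0.13 to 0.27 for the core, 0.24 to 0.38 for the beta ring and 0.0788 to 0.19 for the regulatory particle, and 0.0267 to 0.0795 for core minus regulatory. The core minus regulatory particle median (0.0567) reversed to -0.0276 with median scaling, -0.0230 with the authors' scaled values and -0.0227 with no background correction and no normalization. With cyclic loess it was 0.0163. The cause of these shifts was not tested.

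Among the alternatives' values of single genes, 50 in 19 genes had the opposite sign. With median scaling these were Psma2 -0.0773, Psma3 -0.0648, Psmc2 -0.0171, Psmc3ip 0.0154, Psmc6 0.0897, Psmd2 0.0114, Psme1 -0.0206, Psme2 0.00674, Psme3ip1 0.0443, Psmg1 0.0667, Psmg2 0.0644 and Pomp -0.0235. With cyclic loess they were Psmc6 0.017, Psmg1 0.00412 and Psmg2 0.00458. With no background correction and no normalization they were Psmc3ip 0.19, Psmc6 0.19, Psmd2 0.19, Psmd6 0.17, Psme2 0.22, Psme3 0.15, Psme3ip1 0.25, Psmg1 0.27, Psmg2 0.26, Psmb8 0.13 and Nfe2l1 0.0459. With the authors' scaled values they were Psma2 -0.10, Psma3 -0.0889, Psma5 -0.0181, Psmb1 -0.0164, Psmc2 -0.0413, Psme1 -0.0447, Psme3ip1 0.0103, Psmg1 0.0303, Psmg2 0.0279 and Pomp -0.0473. With the mean of all probes they were Psmd2 0.0341 and Psme4 -0.0080. With 1 array left out the sign turned in ranges of Psmc3ip from -0.83 to 0.44, Psmc6 from -0.18 to 0.038, Psme3ip1 from -0.0965 to 0.0154, Psmg2 from -0.0931 to 0.0381, Psmb8 from -0.35 to 0.0133 and Psmg1 from -0.0774 to 0.0227.

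With the replicate number as a block, 0 members were called higher and 0 lower, the core median stayed at 0.18, and 116 of all genes were higher and 25 lower in place of 555 and 320. Deviations of same-numbered arrays correlated at 0.04, -0.14 and -0.12 across genes, and 1 of 3 pairs correlated best with its own number, so the numbers were not taken to pair the mice. Zfand2a missed the threshold with the block (adjusted p = 0.0678) and with the unmoderated statistic (adjusted p = 0.0871). The scaling of the arrays and the number of mice limit these values.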
